A study of Mus musculus with 48 samples.

Results

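Whether the same genes respond to polyQ-expanded ataxin-1 in the inferior olive of 2 mouse models was asked here gene by gene, by testing whether the ratio of mutant to wild-type (WT) RNA differed between the models at 12 weeks. Male mice were used. The ATXN1-82Q transgenic (Tg) mouse, on FVB/NJ, carries human ATXN1 with an expanded polyQ tract under the *Pcp2* promoter, which drives it in Purkinje cells, a cell type that the inferior olive does not hold. The *Atxn1*-154Q/2Q knock-in (KI) mouse, on C57BL/6J, carries the expansion in 1 copy of its own *Atxn1* under the endogenous regulatory elements, so that the mutant protein can be made in the olive itself. Each model was set against WT mice of its own strain, with 3 libraries in each of the 4 groups, which is 12 of the 48 libraries of a study that also covers 5 weeks of age and the cerebellum. Of 22612 gene symbols shared by the tables of the 2 models, 13173 had a mean of at least 0.5 FPKM (sequenced fragments corrected for gene length and sequencing depth) in all 4 groups and were tested. Genes entered by this expression limit alone.

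Spinocerebellar ataxia type 1 (SCA1) is caused by expansion of the CAG repeat of *ATXN1*, and ataxin-1 acts in the nucleus with the transcriptional repressor Capicua. The inferior olive is a nucleus of the ventral medulla whose glutamatergic neurons are coupled by gap junctions and fire in rhythm through low-threshold calcium channels. Their axons, the climbing fibers, are a main excitatory input to Purkinje cells, so the olive stands upstream of the cells that express the transgene in the Tg mouse.

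The quantity reported is the Tg log2 ratio to WT minus the KI log2 ratio to WT, on log2(FPKM + 0.1), a scale that understates the changes of low genes. It is positive where RNA was lower in KI mice, relative to WT, than in Tg mice. It was tested by limma across all 12 libraries with Benjamini-Hochberg adjustment over all genes tested, and genes with an adjusted p below 0.05 were called. FPKM values of the 2 tables were normalized separately, so that only ratios within a table were compared. Strain, construct, promoter and table all differ between the models and cannot be told apart.

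*Atxn1* itself was read at 6.45, 6.36 and 6.04 FPKM in WT FVB/NJ, 6.43, 6.42 and 6.40 in Tg, 6.39, 6.35 and 5.81 in WT C57BL/6J and 7.31, 6.90 and 8.01 in KI libraries. The KI libraries lay above all 3 of their WT libraries and the Tg libraries lay within the WT range. The log2 ratio was 0.03 in Tg and 0.25 in KI (own comparison, adjusted p = 0.149), and the difference of -0.22 ± 0.085 (SE) did not pass (adjusted p = 0.595). Reads of the human transgene were not counted apart, so this gene does not check the Tg label. *Pcp2*, the Purkinje cell gene whose promoter drives the transgene, was at 1.53 to 5.09 FPKM over the 12 libraries, with a difference of 0.03 ± 0.34 (SE) whose sign changed with the settings used.

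Markers of the inferior olive were present in all 12 libraries. The summed level of 12 olive neuron genes was 251 to 252 FPKM in WT FVB/NJ, 235 to 241 in Tg, 243 to 248 in WT C57BL/6J and 185 to 210 in KI, and none of the 12 was at 0. The dissections also carried other tissue in amounts that varied within every group. Choroid plexus markers, 16 genes, summed to 1246 to 4430 FPKM in WT FVB/NJ, 219 to 1729 in Tg, 1228 to 5558 in WT C57BL/6J and 171 to 3416 in KI. Neutrophil markers reached 147 FPKM in Tg replicate 1 and at most 18.6 in any other library. Read counts were not used here and the depth in fragments is unknown, but the deepest library of a table held 1.32 times (Tg table) or 1.61 times (KI table) the fragments of the shallowest, and 12738 to 12967 genes reached 1 FPKM in each library.

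The ratio to WT differed between the models for 28 genes, 0.213% of those tested (limma, adjusted p below 0.05). In 27 of them (0.205%) the Tg ratio lay above the KI ratio, and in 1, *Irf7* (0.00759%), below it. At an unadjusted p below 0.05 there were 892 genes (6.77%). For the 27 genes the KI ratio ran from -2.03 to -0.24 with a median of -0.52, and the Tg ratio from -0.30 to 0.43 with a median of 0.05, against medians of -0.01 and 0.00 over all genes. Every KI library lay below every WT C57BL/6J library for all 27 genes, as it did for 11.1% of all genes tested. The Tg libraries overlapped with their WT libraries for 15 of the 27, lay above all of them for 7 and below all of them for 5, which occurred for 3.51% and 4.06% of all genes. The same libraries chose the 27 genes, so the counts of both models are no separate evidence. Same-numbered Tg and WT libraries varied together weakly (correlations of 0.164 to 0.258), and no label says what a replicate number marks. With the replicate number as a block 12 genes were called, 11 of the 28 among them. The count was 14 without the trend of the variance with the mean and 103 with sample quality weights. It also depended on single libraries, being 58 without Tg replicate 1 (the library with the neutrophil markers), 18 without WT FVB/NJ replicate 2, 13 without Tg replicate 2, 13 without WT C57BL/6J replicate 2, 11 without WT C57BL/6J replicate 3 and 18 without KI replicate 2. *Crh*, *Calb2*, *Itih3*, *Fgfr3*, *Stac*, *Ttyh1* and *Pcp4* were called with any 1 of the 12 libraries left out and under each of 10 other settings, the block included. *Agt*, *Etnppl* and *Gpr98* were also called with the block, but not with every library left out.

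**Figure D1:**
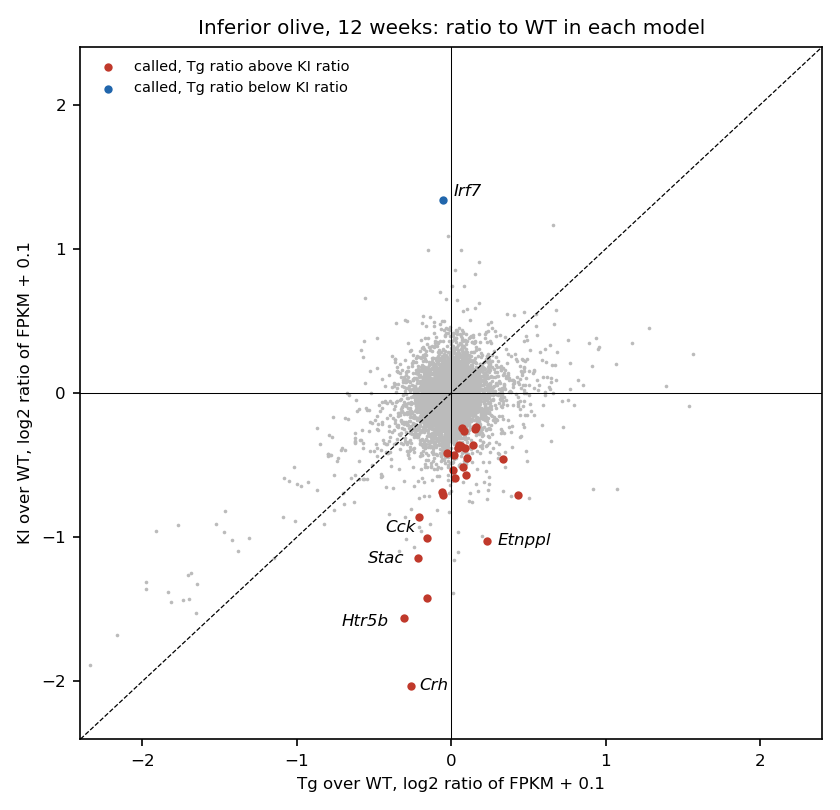
Each point is 1 gene, with the Tg log2 ratio to WT on the horizontal axis and the KI log2 ratio to WT on the vertical axis, both of FPKM + 0.1, and the broken line marks equal ratios; 13166 genes are drawn and 7 lie outside the axes. The 27 called genes with the higher Tg ratio (red) stretch downwards near a Tg ratio of 0, with *Crh* at -2.03 on the KI axis, and *Irf7* (blue) stands at 1.34.

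**Figure D2:**
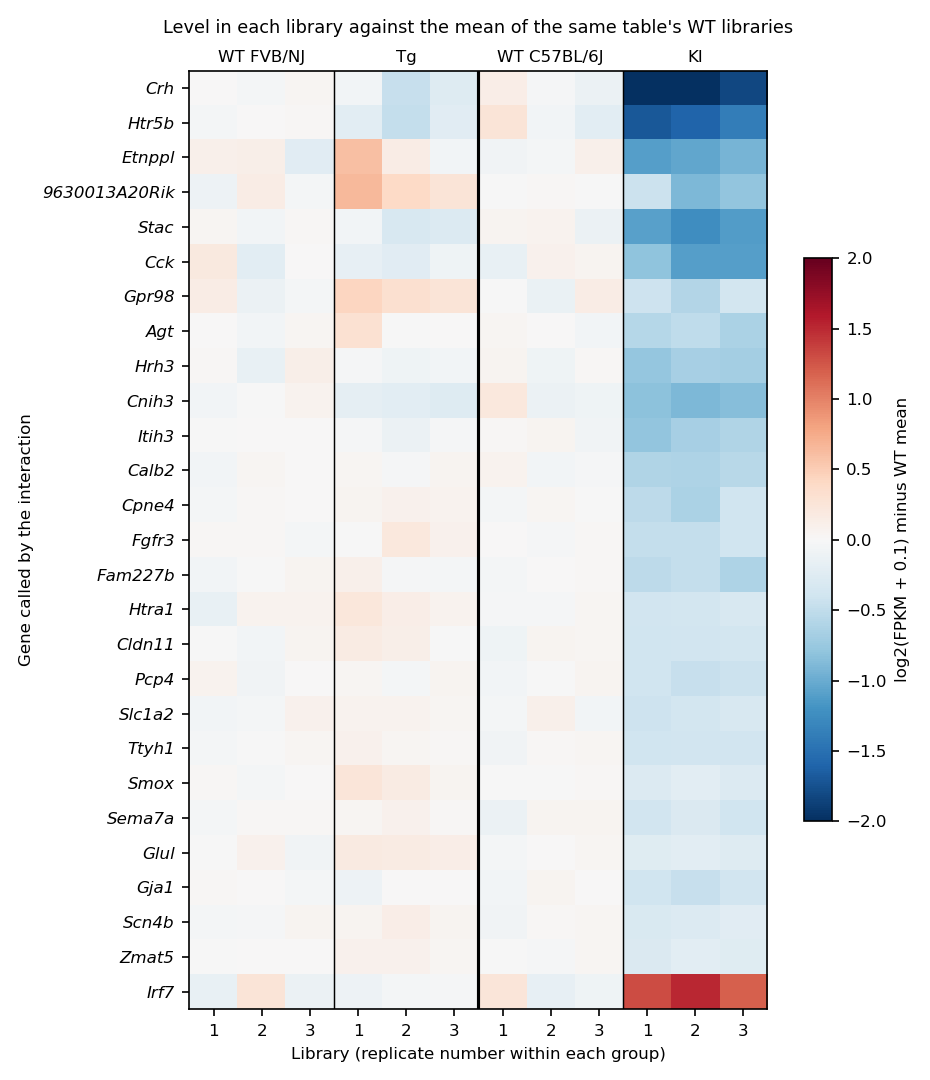
Called genes (27 rows) in each of the 12 libraries (columns), colored by log2(FPKM + 0.1) minus the mean of the WT libraries of the same table, with blue lower and red higher. The KI columns are blue for 26 genes and red for *Irf7*, while the Tg columns are pale for most genes.

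Peptides and receptors of neurons were among the called genes: *Crh*, *Htr5b*, *Cck* and *Hrh3*. The called genes are grouped here by what they are known for, a grouping made after their values were seen. All 4 fell in the KI olive in its own comparison with WT (adjusted p = 0.000759 to 0.00313). Their Tg log2 ratios were -0.30 to -0.05, and none was called in the Tg olive. With the replicate block the interaction was called for *Crh* alone of the 4, and the others had adjusted p of 0.0659 (*Htr5b*), 0.105 (*Cck*) and 0.0626 (*Hrh3*).

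*Crh*, on mouse chromosome 3 (GRCm38, chr3:19693401-19695396), encodes corticotropin-releasing hormone, a peptide carried by climbing fibers. It was at 19.4, 18.9 and 19.9 FPKM in WT FVB/NJ, 18.6, 14.0 and 16.3 in Tg, 20.6, 18.5 and 17.2 in WT C57BL/6J and 4.52, 3.87 and 5.21 in KI libraries. The KI libraries were far below all others of their table, and the Tg libraries lay just below their WT libraries without overlap. That is 24.4% of the WT level in KI and 83.5% in Tg, log2 ratios of -2.03 (95% interval -2.27 to -1.79) and -0.26 (-0.50 to -0.02). The difference of 1.77 ± 0.157 (SE, adjusted p = 0.000745) was the largest of the called genes.

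*Htr5b* (chr1:121509842-121528465) encodes a serotonin receptor known for its expression in the inferior olive. Its FPKM was 7.49, 7.72 and 7.85 in WT FVB/NJ, 6.59, 5.52 and 6.58 in Tg, 9.02, 7.22 and 6.47 in WT C57BL/6J and 2.25, 2.40 and 2.81 in KI libraries. Mutant and WT libraries did not overlap in either model, and the gap was wider in KI. The level was 33.9% of WT in KI and 81.1% in Tg, and the difference was 1.26 ± 0.163 (SE, adjusted p = 0.00741).

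Cholecystokinin, from *Cck* (chr9:121489824-121495694), is a peptide of many excitatory neurons. Its RNA was at 47.2, 35.7 and 41.4 FPKM in WT FVB/NJ, 36.9, 35.3 and 38.6 in Tg, 33.8, 39.8 and 39.1 in WT C57BL/6J and 21.5, 17.3 and 17.4 in KI libraries. Only the KI libraries stood apart from their WT libraries, at 49.8% of the WT level, and the difference between the models was 0.85 ± 0.147 (SE, adjusted p = 0.0402). For *Hrh3*, the histamine receptor that limits transmitter release, KI libraries at 5.85, 6.33 and 6.23 FPKM lay below WT libraries at 10.5, 9.50 and 10.3. Its Tg libraries, at 10.4, 10.03 and 10.3 FPKM, lay inside the WT range of 9.58 to 11.5, and the difference was 0.66 ± 0.092 (SE, adjusted p = 0.0121). *Cck* was called in 3 of the 12 fits that each left out 1 library, with an adjusted p of up to 0.143 (without WT C57BL/6J replicate 3), and *Hrh3* in 11 of them (adjusted p = 0.0507 without the same library).

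Genes for calcium-binding proteins, channels and their partners formed a second group: *Calb2*, *Pcp4*, *Stac*, *Cpne4*, *Scn4b* and *Cnih3*. All 6 fell in the KI olive (log2 ratios -1.15 to -0.27), and the Tg ratios were -0.22 to 0.08.

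*Calb2* (chr8:110137502-110168210) is the gene of the calcium-binding protein calretinin. The 3 libraries of each group read 95.5, 102 and 100 FPKM in WT FVB/NJ, 102, 97.8 and 103 in Tg, 115, 107 and 109 in WT C57BL/6J and 73.0, 72.1 and 74.6 in KI. Tg and WT libraries overlapped and KI libraries stood clear of theirs. Calretinin RNA was 66.5% of WT in KI and 102% in Tg, and the difference of 0.61 ± 0.056 (SE) had an adjusted p of 0.000745.

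*Stac* (chr9:111561437-111690348), whose product binds voltage-gated calcium channels, had 5.66, 5.29 and 5.63 FPKM in WT FVB/NJ, 5.29, 4.42 and 4.54 in Tg, 5.05, 5.08 and 4.48 in WT C57BL/6J and 2.24, 1.99 and 2.2 in KI libraries. KI libraries held less than any WT library by more than 2 FPKM, while the highest Tg library was level with the lowest WT library. The difference was 0.93 ± 0.114 (SE, adjusted p = 0.00596). For *Pcp4*, which encodes a small modulator of calmodulin, KI libraries read 178, 172 and 175 FPKM against 228, 235 and 245 in WT. Tg libraries of *Pcp4*, at 228, 218 and 232 FPKM, overlapped with their WT range of 213 to 233, and the difference was 0.45 (adjusted p = 0.00741). *Cnih3*, an auxiliary subunit of AMPA receptors, was lower than WT in every library of both models, with log2 ratios of -0.86 in KI and -0.21 in Tg and a difference of 0.65 (adjusted p = 0.0402). *Cpne4*, a calcium-dependent phospholipid-binding protein, and *Scn4b*, a sodium channel beta subunit, had differences of 0.59 and 0.35 (adjusted p = 0.00741 and 0.0326). *Cnih3* was called in 1 of the 12 fits with a library left out (without WT C57BL/6J replicate 1), with an adjusted p of up to 0.118 in the others, and *Scn4b* in 4 of them (up to 0.124). With the replicate block *Cpne4*, *Scn4b* and *Cnih3* were not called (adjusted p = 0.0626, 0.0886 and 0.0988).

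Of the called genes, 10 are known mainly from glia: *Gja1*, *Slc1a2*, *Glul*, *Fgfr3*, *Agt*, *Ttyh1*, *Etnppl*, *Itih3* and *Htra1*, which are linked to astrocytes, and *Cldn11*, the tight junction protein of myelin. All 10 fell in the KI olive, with log2 ratios from -1.03 to -0.24. The Tg log2 ratios ran from -0.06 to 0.23, above 0 in 8 of the 10. With the replicate block 5 of the 10 were called, and *Glul*, *Cldn11*, *Gja1*, *Slc1a2* and *Htra1* were not (adjusted p = 0.0626, 0.0843, 0.0988, 0.0988 and 0.128). *Fgfr3*, *Itih3* and *Ttyh1* were called with any 1 library left out, and the other 7 in 4 (*Slc1a2*) to 9 (*Agt*) of the 12 such fits, with an adjusted p of up to 0.124 (*Htra1*, without WT C57BL/6J replicate 3).

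*Gja1* (chr10:56377330-56402513), the gene of the astrocyte gap junction protein connexin 43, was at 137, 136 and 131 FPKM in WT FVB/NJ, 126, 136 and 135 in Tg, 114, 124 and 120 in WT C57BL/6J and 90.5, 86.4 and 91.4 in KI libraries. Only KI libraries were separate from WT. It was 75% of WT in KI and 98.2% in Tg, a difference of 0.39 ± 0.059 (SE, adjusted p = 0.0176).

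*Slc1a2* (chr2:102658659-102790784), the main glutamate transporter of astrocytes, had 250, 255 and 278 FPKM in WT FVB/NJ, 275, 275 and 269 in Tg, 237, 261 and 233 in WT C57BL/6J and 183, 188 and 195 in KI libraries. Tg libraries fell inside the WT range, and KI libraries were all below it. The KI level was 77.5% of WT and the difference 0.43 ± 0.071 (SE, adjusted p = 0.03). Glutamine synthetase, from *Glul*, which turns the glutamate taken up into glutamine, read 583, 599 and 578 FPKM in KI against 671, 696 and 707 in WT. In Tg libraries *Glul* was at 639, 634 and 619 FPKM, above the WT range of 535 to 596, and the difference was 0.40 (adjusted p = 0.0156).

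The widest difference among these genes was that of *Etnppl*, an astrocyte enzyme that breaks down phosphoethanolamine, at 10.4, 10.8 and 11.7 FPKM in KI against 21.4, 21.9 and 24.1 in WT. Tg libraries of *Etnppl* scattered, at 30.8, 22.5 and 19.4 FPKM around WT values of 21.7, 21.9 and 17.4, and the difference was 1.26 (adjusted p = 0.0203). *Agt*, which encodes angiotensinogen, was at 51.7, 54.0 and 49.9 FPKM in KI and 79.3, 77.2 and 74.5 in WT. The Tg libraries of *Agt*, at 98.3, 79.0 and 80.2 FPKM, overlapped with WT at 80.5, 76.8 and 82.3, and the difference was 0.67 (adjusted p = 0.0156). *Fgfr3*, a fibroblast growth factor receptor of astrocytes, *Itih3*, *Ttyh1* and *Htra1* differed by 0.55, 0.63, 0.43 and 0.50 (adjusted p = 0.0069, 0.00424, 0.00522 and 0.0319). *Cldn11* had 157, 159 and 161 FPKM in KI against 196, 215 and 213 in WT, and 243, 235 and 216 in Tg against 215, 209 and 226 in WT, a difference of 0.47 (adjusted p = 0.0156).

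Summed marker levels were also lower in KI than in WT C57BL/6J, but the sums contain *Gja1*, *Slc1a2* and *Cldn11* and are no separate evidence. Astrocyte markers, 10 of 12 matched, summed to 954 to 984 FPKM in KI and 1035 to 1156 in WT C57BL/6J, but to 1173 to 1260 in Tg and 1188 to 1221 in WT FVB/NJ. The 12 oligodendrocyte markers summed to 6167 to 6353 FPKM in KI against 6778 to 7192 in WT, and to 6755 to 7656 in Tg against 6615 to 7140 in WT. Of the astrocyte markers 2 were called by the interaction (*Gja1* and *Slc1a2*), and of the oligodendrocyte markers 1 (*Cldn11*), against 0.205% of all genes in this direction. Of the 10 astrocyte markers, 7 had a difference above 0 and 3 below 0, against 11 and 1 of the 12 oligodendrocyte markers. Over all genes 6699 of 13173 were above 0. All 3 KI libraries lay below WT for 5 of the 10 and 9 of the 12 (11.1% of all genes). They lay above WT for 1 astrocyte marker (8.35% of all genes). The part of these markers in the results was not tested. In bulk tissue, fewer cells of a type and less RNA per cell cannot be told apart. *Gfap*, the intermediate filament of astrocytes, was not called (0.22, adjusted p = 0.775).

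A further 6 positive genes share no role known here. *9630013A20Rik*, a non-coding transcript, differed by 1.14 and *Gpr98*, an adhesion receptor, by 0.80 (adjusted p = 0.0402 for each), and these 2 were the called genes that did not pass in the KI comparison alone (adjusted p = 0.0501 and 0.0683). *Fam227b*, *Sema7a*, *Smox* and *Zmat5* differed by 0.55, 0.41, 0.41 and 0.31 (adjusted p = 0.0195, 0.0341, 0.03 and 0.0156). Of these 6 only *Gpr98* was called with the replicate block (adjusted p = 0.0427, against 0.0659 to 0.128 for the others), and with 1 library left out they were called in 1 (*Gpr98*) to 10 (*Zmat5*) of 12 fits. *Sema7a* is a membrane-anchored semaphorin, and *Smox* encodes spermine oxidase. For *Fam227b* the means of the WT groups were 9.97 FPKM in FVB/NJ and 2.83 in C57BL/6J, and for *Zmat5* 20.9 and 61.1, in tables normalized separately. Just outside the threshold stood *Ndrg2* (0.49, adjusted p = 0.0518), *Chil1* and *Kcnc1* (adjusted p = 0.0522 each).

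**Figure D3:**
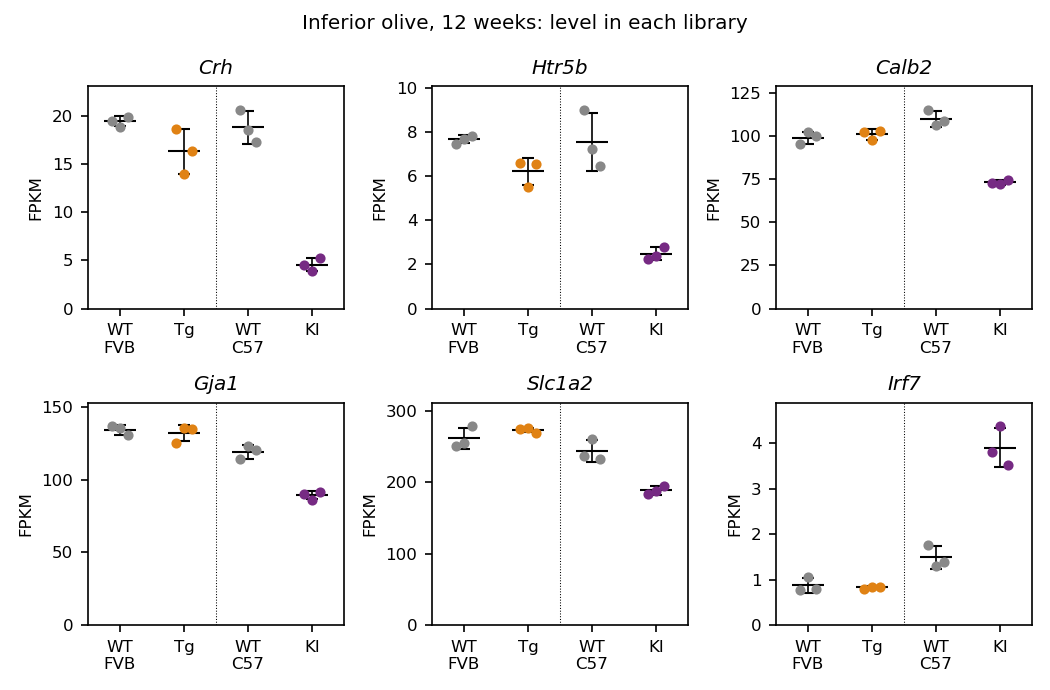
FPKM in each library of 6 called genes, with WT libraries in grey, Tg in orange and KI in purple, horizontal bars for the mean and error bars for the SD (n = 3); the dotted line separates the 2 tables. KI libraries lie below WT for *Crh*, *Htr5b*, *Calb2*, *Gja1* and *Slc1a2* and above WT for *Irf7*, whereas Tg libraries overlap with WT for *Calb2*, *Gja1*, *Slc1a2* and *Irf7*.

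The gene called in the opposite direction was *Irf7* (chr7:141262706-141266481), which encodes the transcription factor that amplifies the type I interferon response. Its level was 0.773, 1.06 and 0.786 FPKM in WT FVB/NJ, 0.801, 0.838 and 0.846 in Tg, 1.77, 1.31 and 1.39 in WT C57BL/6J and 3.82, 4.38 and 3.53 in KI libraries. All KI libraries were above all WT libraries, and the Tg libraries fell within the WT range. *Irf7* rose 2.53-fold in KI and was 96.3% of WT in Tg, a difference of -1.39 ± 0.195 (SE, adjusted p = 0.0121; adjusted p = 0.0507 without WT C57BL/6J replicate 3 and 0.0659 with the replicate block).

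Other interferon-stimulated genes shared this direction without passing. Of 49 genes in the list, 32 were tested, and in all 32 the Tg ratio lay below the KI ratio. The difference had an unadjusted p below 0.05 in 25 of them, which occurred in this direction in 2.4% of all genes (4.37% in the other), and only *Irf7* was called. The median difference of the 32 was -0.44, from medians of 0.44 in KI and 0.01 in Tg, against 0.00 over all genes. All 3 KI libraries were above WT for 29 of the 32 (8.35% of all genes), and all 3 Tg libraries were above WT for 1 and below it for 1. In the comparisons within a model, 15 of 36 genes of the list rose in KI (0.26% of all genes), and 0 of 33 were called in Tg. The study singled out immune defense genes in these same KI libraries, so the direction of this list is no independent evidence.

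*Ifih1*, a sensor of double-stranded RNA, was at 0.892, 0.895 and 0.845 FPKM in WT FVB/NJ, 0.811, 0.762 and 0.792 in Tg, 1.57, 1.41 and 1.43 in WT C57BL/6J and 2.1, 2.16 and 2.22 in KI libraries. Its KI libraries lay above WT and its Tg libraries below WT, with a difference of -0.67 ± 0.123 (SE, adjusted p = 0.0533). *Ifit1*, an RNA-binding antiviral protein, had 3.49, 4.12 and 3.17 FPKM in KI against 1.60, 1.95 and 1.70 in WT, while Tg libraries at 1.06, 0.938 and 0.984 overlapped with WT at 0.960, 0.799 and 1.11 (difference -0.93, adjusted p = 0.0725). *Ifit3* had 6.29, 6.59 and 6.06 FPKM in KI against 3.79, 3.84 and 3.55 in WT, and 1.13, 1.77 and 1.61 in Tg against 1.72, 1.43 and 1.30 in WT (difference -0.74, adjusted p = 0.235). *Oasl2* and *Rtp4* differed by -1.11 and -1.14 (adjusted p = 0.108 and 0.0561). *Ifit1*, *Ifit3*, *Oasl2* and *Rtp4* were chosen after their values were seen.

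**Figure D4:**
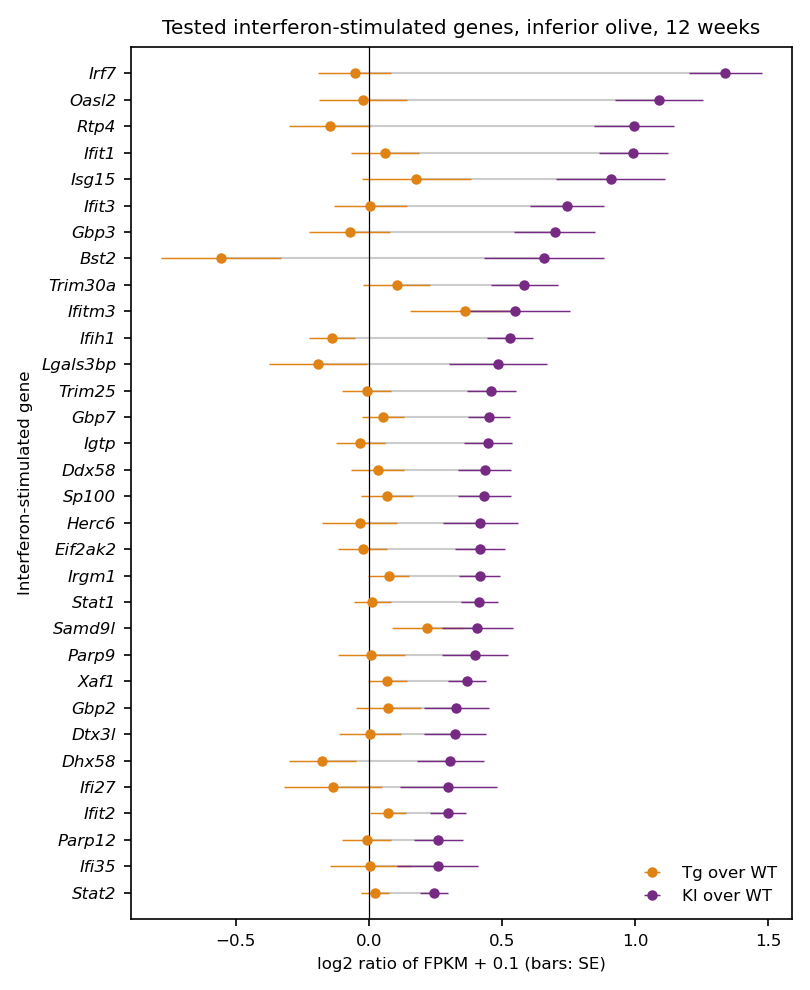
Log2 ratio to WT of the 32 tested interferon-stimulated genes in Tg (orange) and KI (purple), with bars for the SE (n = 3 libraries per group) and a grey line joining the ratios of a gene. The KI point lies to the right of the Tg point for all 32 genes, from *Irf7* at 1.34 in KI to *Stat2* at 0.25.

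Antigen presentation by MHC class I, a target of interferon, had 9 of 13 genes tested. All 9 had a difference below 0, 6 at an unadjusted p below 0.05 (2.4% of all genes in this direction), and none was called (0 of 9). KI libraries were above WT for all 9 (8.35% of all genes), and the medians were 0.36 in KI and 0.00 in Tg. *B2m*, the invariant light chain of MHC class I, was at 162, 173 and 155 FPKM in KI against 125, 127 and 129 in WT, and at 85.0, 87.8 and 88.8 in Tg against 85.3, 82.1 and 80.5 in WT. KI libraries were clear of WT and Tg libraries overlapped with it, and the difference of -0.28 ± 0.057 (SE) had an adjusted p of 0.0927. *Tap2*, a peptide transporter subunit, had -0.27 (adjusted p = 0.536). Microglial markers summed to 141 to 144 FPKM in KI, 137 to 143 in WT C57BL/6J, 136 to 160 in Tg and 133 to 138 in WT FVB/NJ, and 0 of 10 tested were called (limma, 1 at an unadjusted p below 0.05).

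Interferon regulatory factors bind the interferon-stimulated response element, whose core GAAANNGAA was searched on both strands of RefSeq promoters (GRCm38.p6, 250 bases before to 50 after the start). It was found in 8.56% of 32851 promoters, in 58.5% of the 41 promoters of the interferon-stimulated list and in 11.5% of the 26 promoters of the called genes (3, those of *Glul*, *Htra1* and *Ttyh1*). Of the 28 called genes 23 had a promoter in this set. Sequences of the 250 bases before the start are shown for the called *Irf7* and for 3 members of the list with the element, with matches to the core on either strand in capitals. They lie at chr7:141266425-141266674 (minus strand), chr2:62646256-62646505 (minus strand), chr19:34640639-34640888 (plus strand) and chr19:34583279-34583528 (plus strand).
Irf7: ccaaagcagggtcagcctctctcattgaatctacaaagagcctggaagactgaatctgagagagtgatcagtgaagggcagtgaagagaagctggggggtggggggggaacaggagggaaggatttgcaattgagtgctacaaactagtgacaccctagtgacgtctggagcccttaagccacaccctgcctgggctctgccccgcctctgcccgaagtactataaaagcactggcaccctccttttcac
Ifih1: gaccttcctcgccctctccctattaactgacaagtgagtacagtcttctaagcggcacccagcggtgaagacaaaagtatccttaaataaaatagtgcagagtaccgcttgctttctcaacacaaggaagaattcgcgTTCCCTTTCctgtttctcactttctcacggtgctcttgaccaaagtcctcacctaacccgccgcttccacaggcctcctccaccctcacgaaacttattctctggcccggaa
Ifit1: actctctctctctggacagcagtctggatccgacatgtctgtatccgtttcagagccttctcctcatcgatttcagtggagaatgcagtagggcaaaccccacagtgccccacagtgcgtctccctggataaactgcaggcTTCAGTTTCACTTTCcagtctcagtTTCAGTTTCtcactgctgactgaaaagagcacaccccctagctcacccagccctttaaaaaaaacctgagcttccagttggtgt
Ifit3: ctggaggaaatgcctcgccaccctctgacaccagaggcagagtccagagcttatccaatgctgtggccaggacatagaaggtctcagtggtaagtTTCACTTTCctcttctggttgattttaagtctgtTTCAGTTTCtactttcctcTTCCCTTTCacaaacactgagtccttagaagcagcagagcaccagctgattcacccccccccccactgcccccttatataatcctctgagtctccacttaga
The start used for *Irf7* lies inside the gene span given above, so its window reaches into that span. The *Irf7* window held no match. That of *Ifih1* held 1, with its first base 112 bases before the start, and those of *Ifit1* and *Ifit3* held 3 each, 2 of them overlapping in *Ifit1*. The Capicua octamers TGAATGAA and TGAATGGA were in 2.47% of all promoters and in 0 of the 26 of called genes. A match is a stretch of letters and not a measured binding site.

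Genes that mark neurons of the inferior olive had a median ratio below WT in both models. All 12 genes of the list were tested. The difference was above 0 in 11, as in 6699 of all 13173 genes, and passed for 2 (0.205% of all genes in this direction), *Crh* and *Htr5b*. Its median was 0.18, from medians of -0.27 in KI and -0.12 in Tg. KI libraries were all below WT for 7 of the 12 (11.1% of all genes) and all above it for 1 (8.35%). Tg libraries were all below WT for 6 of the 12 (4.06% of all genes). *C1ql1*, the climbing fiber protein that organizes synapses on Purkinje cells, was at 22.5, 19.3 and 26.0 FPKM in KI against 42.6, 36.0 and 39.2 in WT. Its Tg libraries, at 32.4, 36.9 and 36.8 FPKM, were also below their WT libraries at 41.3, 41.3 and 44.3, and the difference between the models did not pass (0.54 ± 0.134 SE, adjusted p = 0.202). *Pou4f1*, a transcription factor of olive neurons, and *Calb1*, the gene of calbindin, had differences of 0.41 and 0.34 (adjusted p = 0.422 and 0.188), and both were chosen after their values were seen. Some genes of the list had differences near 0, at 0.00 for the vesicular glutamate transporter *Slc17a6* and 0.02 for *Foxp2* (adjusted p = 1 for each).

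The mean of the Tg and KI log2 ratios differed from 0 for 48 genes (0.364% of 13173), 41 lower (0.311%) and 7 higher (0.0531%) than WT. It was computed from the same 12 libraries as the difference. For the 41 lower genes the KI ratio was the larger in size in every case, with medians of -0.46 in KI and -0.09 in Tg. The Tg ratio was below 0 for 34 of the 41 (51.6% of all genes). All Tg libraries lay below WT for 19 of the 41 (4.06% of all genes). The mean that chose the 41 contains these Tg ratios, so neither count is separate evidence of a decrease in Tg. Among the largest mean ratios below 0 were those of *Crh* (-1.15), *Htr5b* (-0.93), *Stac* (-0.68), *Cck* (-0.58), *Cartpt* (-0.58), *Cnih3* (-0.54) and *C1ql1* (-0.53), with adjusted p from 6.08e-05 to 0.0313. Of the olive neuron list 6 of 12 were called lower. Among the higher genes at 1 FPKM or more were *Polr2a* (0.25), *B2m* (0.22), the joint entry of *H2-D1* and *H2-L* (0.20) and *Dock9* (0.15). The count was 31 without WT FVB/NJ replicate 2, 29 without Tg replicate 2, 17 without WT C57BL/6J replicate 2, 31 without WT C57BL/6J replicate 3 and 27 without KI replicate 2, and it was 24 without the variance trend and 137 with sample quality weights.

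Within each model, 211 of 13832 genes were called in KI against WT (1.53%, 36 higher and 175 lower) and 0 of 13726 in Tg (0%). In Tg 474 genes had an unadjusted p below 0.05 in limma (3.45%), and 4 were called, all lower, with the replicate number as a block: *Enpp2* (-0.97), *Lbp* (-1.42), *Calml4* (-1.08) and *Ace* (-0.62), with adjusted p of 0.0157 to 0.0324. *Enpp2* is among the 16 choroid plexus markers, whose summed level varied in every group. Their median log2 ratios were -1.69 in Tg and -1.29 in KI, and the mean of both ratios was below 0 for all 16. All 3 Tg libraries lay below WT for 0 of the 16. The part of this tissue in the 4 calls was not tested. With 0 genes called in Tg, none could be called in both models, so this overlap says nothing of shared genes. The study, with its own software, did report altered genes in the Tg olive at this age, some higher and some lower, with defense response among the enriched pathways. It also reported genes altered in the olive of both models, nearly all of them lower in both. Of the 211 genes 201 were tested for the difference between the models, and 26 of these were called there. The 170 that fell had a median KI ratio of -0.36 and a median Tg ratio of -0.02, and the Tg ratio was below 0 for 60%, against 51.6% of all genes. The 31 that rose had medians of 0.42 in KI and 0.04 in Tg, and the Tg ratio was above 0 for 58.1%, against 48.4% of all genes. The KI count was 97 without the variance trend and 85 with the replicate block. It was 41 without WT C57BL/6J replicate 2, 40 without replicate 3 of that group, 93 without KI replicate 1 and 108 without KI replicate 2. The Tg count was 1 without WT FVB/NJ replicate 2.

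Neuropeptide genes, the called *Crh* and *Cck* included, mostly had differences above 0. Of 28 neuropeptide genes 23 were tested, and 20 had a difference above 0, as did 6699 of all 13173 genes. The median difference of the 23 was 0.24, from -0.28 in KI and -0.09 in Tg. An unadjusted p below 0.05 was found for 9, all above 0 (4.37% of all genes in this direction), and 2 were called (*Crh* and *Cck*, against 0.205% of all genes). In the KI comparison alone 7 of the 23 fell (1.27% of all genes), those 2 included, the others being *Cartpt*, *Nppc*, *Sst*, *Trh* and *Tac2*. *Tac2*, which encodes neurokinin B, was at 3.78, 2.68 and 1.81 FPKM in KI against 5.48, 8.55 and 7.57 in WT, and at 9.62, 8.42 and 11.4 in Tg against 11.3, 11.2 and 7.07 in WT. It had the widest difference of the uncalled peptides (1.40 ± 0.355 SE, adjusted p = 0.217), and its KI libraries were below WT while its Tg libraries overlapped. *Trh*, *Cartpt*, *Nppc*, *Gal* and *Sst* had differences of 0.83, 0.76, 0.72, 0.72 and 0.31 (adjusted p = 0.146 to 0.636). All but *Crh*, *Cck* and *Cartpt* were chosen after their values were seen. Of 33 receptors for neuropeptides tested, 0 were called and 1 had an unadjusted p below 0.05 (limma), with a median of 0.05.

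Markers of serotonergic neurons, which lie beside the olive in the medullary raphe, summed to 32.3 to 35.3 FPKM in KI and 43.0 to 51.8 in WT C57BL/6J, and to 38.1 to 43.6 in Tg and 23.3 to 40.5 in WT FVB/NJ. None of the 6 was called by the interaction (0), and the median difference was 0.74. In limma 4 had an unadjusted p below 0.05, all above 0 (4.37% of all genes in this direction). *Tph2*, the serotonin-synthesizing enzyme, was at 6.78, 6.69 and 7.25 FPKM in KI against 12.2, 11.7 and 10.3 in WT, and at 9.74, 11.4 and 11.6 in Tg against 4.78, 11.3 and 10.5 in WT (difference 1.10, adjusted p = 0.381). KI libraries were below WT, and WT FVB/NJ replicate 1 lay below every other library of its table. The serotonin transporter *Slc6a4* had a difference of 1.23 (adjusted p = 0.28). Both were chosen after their values were seen, and the part of these neurons in the other results was not tested.

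Lists of receptors and channels held few or no calls, where 0.213% of all genes were called and 6.77% had an unadjusted p below 0.05. Serotonin receptors had 1 of 12 (*Htr5b*) and a median difference of 0.19, with *Htr1b* at 0.46 (adjusted p = 0.153). Glutamate receptors had 0 of 24 called (5 at an unadjusted p below 0.05), a median of 0.02 and their smallest p in *Grin2c* (0.38) and *Grm4* (0.40). Genes of GABA and glycine signaling had 0 of 28 called (8 at an unadjusted p below 0.05, of which 7 positive), with *Slc6a5*, a glycine transporter, at 0.24 (adjusted p = 0.518) and a median of 0.08. Voltage-gated calcium channels had 0 of 21 called (1 at an unadjusted p below 0.05) and a median of -0.03, *Cacna1g*, a low-threshold channel, being at 0.17 (adjusted p = 0.604).

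The remaining lists held 0 calls by limma. Over all genes, 6699 of 13173 differences were above 0. An unadjusted p below 0.05 was found in 4.37% of all genes above 0 and in 2.4% below 0. Immediate early genes, which follow neuronal activity, had 15 of 18 differences above 0 and a median of 0.26, with KI and Tg medians of -0.16 and 0.10, and 5 at an unadjusted p below 0.05, among them *Klf4* (0.66) and *Dusp1* (0.49). All 9 complement genes tested had a difference above 0 and 1 an unadjusted p below 0.05 (*C3*, 0.66), with medians of -0.02 in KI and 0.33 in Tg. The list of *Atxn1*, *Cic* and Capicua targets had 11 of 13 differences below 0, a median of -0.10 and 2 at an unadjusted p below 0.05. *Etv4*, a known Capicua target, rose in KI (log2 ratio 0.39, adjusted p = 0.0405 in the KI comparison) and was at -0.10 in Tg, and its difference of -0.49 did not pass (adjusted p = 0.274). Cholesterol synthesis (0 of 21 called, 0 at an unadjusted p below 0.05) and heat shock with the unfolded protein response (0 of 22, 1 at an unadjusted p below 0.05) each had a median of 0.03.

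The same difference was measured in other mice at 5 weeks, where 2 of 13101 genes were called (0.0153%), *Crh* and *Id4* (0.63). At an unadjusted p below 0.05 there were 724 genes (5.53%). The count at 5 weeks lay between 0 and 8 with 1 library left out, being 0 without any 1 of the WT FVB/NJ libraries, Tg replicates 2 or 3 or KI replicates 2 or 3, 5 and 8 without WT C57BL/6J replicates 1 and 2, and 6 without Tg replicate 1. Of the 28 genes called at 12 weeks 10 had an unadjusted p below 0.05 at 5 weeks and 1 was called. Of the 27 positive genes 24 were above 0 at 5 weeks, against 52.3% of all genes, with a median of 0.13.

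Of the 4 peptide and receptor genes 1, *Crh*, was called at 5 weeks. Differences of the 4 at 5 weeks were 0.38 to 1.91 with a median of 0.93, and 3 had an unadjusted p below 0.05. *Crh* read 17.4, 17.1 and 18.6 FPKM in WT FVB/NJ, 13.1, 19.2 and 22.4 in Tg, 28.8, 25.7 and 20.8 in WT C57BL/6J and 7.15, 6.26 and 6.35 in KI at 5 weeks (difference 1.91 ± 0.232 SE, adjusted p = 0.0336). Tg libraries surrounded the WT range and KI libraries lay below theirs. *Htr5b* had 1.27, *Cck* 0.58 and *Hrh3* 0.38 (adjusted p = 0.15, 0.9 and 0.947). The calcium group had 0.11 to 1.06 with a median of 0.28 and 4 of 6 at an unadjusted p below 0.05, led by *Stac* (1.06, adjusted p = 0.12).

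Genes known mainly from glia had differences of -0.01 to 0.26 at 5 weeks with a median of 0.08, 0 of the 10 being called by limma and 2 having an unadjusted p below 0.05, *Htra1* (0.26) and *Itih3* (0.26). KI ratios of these genes at 5 weeks were -0.35 to -0.05. *Gja1* was at 122, 124 and 130 FPKM in KI and 125, 140 and 133 in WT C57BL/6J at 5 weeks, and KI and WT libraries overlapped (difference between the models 0.03 ± 0.087 SE, adjusted p = 0.998). *Irf7* was at -0.13 (adjusted p = 0.998), with KI libraries at 1.91, 1.38 and 1.45 FPKM above WT libraries at 1.29, 1.14 and 1.37. Whether the difference between the models changed with age was tested over the 24 inferior olive libraries. By limma 1 of 12719 genes was called (0.00786%), *Ercc8* (0.60, adjusted p = 0.0377). None of the 28 was called (0), but 16 had an unadjusted p below 0.05, against 557 of all genes (4.38%). Among these 16 were 9 of the 10 genes known mainly from glia. The count called over all genes was 0 without any 1 of 17 of the 24 libraries, and 2 without WT C57BL/6J replicate 2 or KI replicate 1 and 3 without KI replicate 3, all of 5 weeks. The 12-week libraries that chose the 28 genes enter that test too.

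In the cerebellum at 12 weeks, where the Tg mouse expresses its transgene, 1506 of 12713 genes were called (11.8%, 5.62% positive). Of the called olive genes 24 could be tested there and 15 were called. Those known from glia all had differences above 0 in the cerebellum, 0.04 to 1.62 with a median of 0.65, and 8 of the 10 were called. Their median ratio was 0.39 in the Tg and -0.35 in the KI cerebellum. The calcium group ranged from -1.26 (*Calb2*) to 1.89 (*Cnih3*), with *Stac* at -1.05 and *Pcp4* at -0.61. *Irf7* had -1.44 (adjusted p = 0.0187), from 1.12 in KI and -0.32 in Tg. Between tissues, 690 of 12149 differences were called (5.68%), 7 of them among the 24 genes, a count that was 442 without KI cerebellum replicate 1 and 1135 without WT C57BL/6J cerebellum replicate 2. The 12-week olive libraries enter this test as well.

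**Figure D5:**
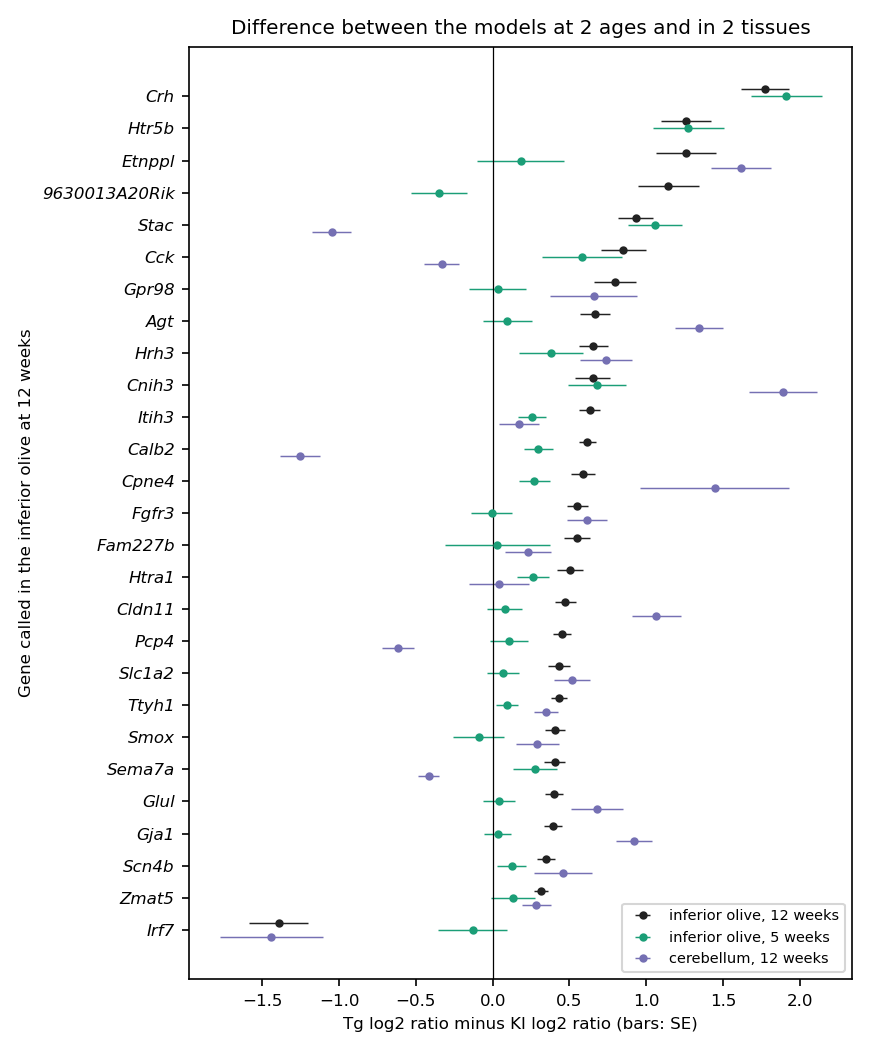
Tg log2 ratio minus KI log2 ratio of 27 called genes in the inferior olive at 12 weeks (black), the inferior olive at 5 weeks (green) and the cerebellum at 12 weeks (violet), with bars for the SE (n = 3 libraries per group); genes without a violet point were not tested in the cerebellum. Black and green points are close for *Crh*, *Htr5b* and *Stac*, green points of the glial genes lie between -0.01 and 0.26, and violet points of *Stac*, *Calb2*, *Cck*, *Pcp4* and *Sema7a* fall below 0.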

How the data were processed

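Inferior olive RNA of 12 male mice (3 libraries in each of 4 groups) was sequenced. Using TopHat2 (v2.1.0) for alignment (mm10), Cufflinks (v2.2.1) and Cuffnorm, the authors made and deposited 1 FPKM value per gene and library, normalized over the 6 libraries of a model. The deposited tables also hold group averages and the fold changes and p-values of Cuffdiff, which were not used. Replicates are separate mice in the study's account.

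Entries without a gene symbol (11.2% of the Tg table and 10.6% of the KI table) were left out. Symbols were matched between the tables, and 13 at different loci were dropped. *Aif1* could not be matched. Groups were compared on log2(FPKM + 0.1) with limma (3.58.1, R 4.3.3), using a linear model of the 4 group means and empirical Bayes moderation with a trend, which was tested on simulated data. Permutation tests of 3 against 3 libraries cannot go below p = 0.1 and were not used. Named genes were the called genes at 1 FPKM or more with the largest differences (up to 15 in each direction), the 8 largest of the mean effect, members of the lists (those called, or else the 2 with the smallest p), the genes called by age or tissue and some markers; others are said to be chosen after their values were seen, and the called genes outside this rule were named as well. Some genes that the rule names, 1 of the 28 called genes among them, are not reported here. The comparisons, members and lists were chosen with earlier results of these data known. Gene positions are those of GENCODE vM21.

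Same-numbered Tg and WT libraries deviated together in the Tg table (correlations of deviations from the group means of 0.189, 0.164 and 0.258), which was taken as pairing. The main fits held no term for this pairing, and the replicate block entered only as an alternative. In the KI table same-numbered libraries did not all deviate together (0.302, -0.336 and -0.13). Libraries with unlike numbers had correlations of -0.191 to 0.017 in the Tg table but of up to 0.545 in the KI table. No label says that a number marks a litter, batch or day. Alternatives were other pseudocounts, filters and scalings, no trend, quality weights, a replicate block, a choroid plexus covariate and leaving out each library.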

Additional observations from a re-analysis of the deposited data

Results flagged for a closer look

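The ratio to WT differed between the models, by a test of the difference itself, for 28 genes of the inferior olive at 12 weeks, of which 27 are given. The Tg log2 ratio minus the KI log2 ratio was 1.77 for *Crh*, 1.26 for *Htr5b*, 1.26 for *Etnppl*, 1.14 for *9630013A20Rik*, 0.93 for *Stac*, 0.85 for *Cck*, 0.80 for *Gpr98*, 0.67 for *Agt*, 0.66 for *Hrh3*, 0.65 for *Cnih3*, 0.63 for *Itih3*, 0.61 for *Calb2*, 0.59 for *Cpne4*, 0.55 for *Fgfr3* and 0.55 for *Fam227b*. It was 0.50 for *Htra1*, 0.47 for *Cldn11*, 0.45 for *Pcp4*, 0.43 for *Slc1a2*, 0.43 for *Ttyh1*, 0.41 for *Smox*, 0.41 for *Sema7a*, 0.40 for *Glul*, 0.39 for *Gja1*, 0.35 for *Scn4b*, 0.31 for *Zmat5* and -1.39 for *Irf7*.

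The difference between the models changed with age for *Ercc8*, by 0.60 (12 weeks minus 5 weeks). It changed with tissue (inferior olive minus cerebellum) by 1.98 for *Stac*, 1.87 for *Calb2*, 1.18 for *Cck*, 1.06 for *Pcp4*, 0.82 for *Sema7a*, -0.53 for *Gja1* and -1.24 for *Cnih3*. The age and tissue tests share the 12-week inferior olive libraries that chose all of these genes but *Ercc8*.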

How the results depend on the processing

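No result changed direction where a call was made. The 28 genes called by the interaction became 14 without the mean-variance trend, 103 with sample quality weights and 12 with the replicate block (11 of the 28 among them), and 11 to 58 with 1 library left out. The 48 of the mean effect became 24 without the trend, 137 with quality weights and 17 to 42 with 1 library left out. For KI against WT, 211 became 97 without the trend, 85 with the replicate block and 40 to 160 with 1 library left out. For Tg against WT, 0 became 1 without a filter on low values, 4 with the replicate block and 0 to 1 with 1 library left out. The 2 of 5 weeks became 1 with the block and 0 to 8, the 1 of the age difference 0 with the block and 0 to 3, and the 690 of the tissue difference 442 to 1135 with 1 library left out. The cause was not tested. Other counts stayed within 1.5 times, the interaction at 21 (no filter) to 41 (choroid plexus covariate).

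With the block 17 of the 27 called genes described here had an adjusted p of 0.0626 to 0.128 for the interaction, and 18 of the 27 lost the call with at least 1 library left out. Same-numbered libraries of the KI table did not all deviate together, and no label says what their number marks. A call lost under the block is no measure of the size of a difference. The depth is unknown, and 3 libraries a group limit the precision.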
